A study of Mus musculus with 6 samples.

Results

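Nrp1, Izumo1r, Gpr83, Klrg1, Cd83, Capg, Rgs1 and Penk are 8 genes counted among the transcripts that mark regulatory T cells (Tregs), and their open chromatin was described in mouse Tregs with and without Il33. Open chromatin was read from ATAC-seq peaks, the stretches where the transposase Tn5 cut and tagged DNA most often. All peaks that overlapped the RefSeq span of a gene or the 10 kb on either side of it were taken, and peaks that overlapped between libraries were merged into regions. This gave 57 of the 64817 merged regions of the study, at 8 of its 21900 protein-coding genes.

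Tregs are CD4 T cells that restrain immune responses and depend on the transcription factor Foxp3, and in tumours and the lymph nodes that drain them they can limit immunity against the tumour. Interleukin-33, the product of Il33, is released by damaged or stressed tissue cells and acts on Tregs that carry its receptor ST2. A gene that a cell uses or keeps ready for use usually has open chromatin at its promoter and at enhancers inside or around it, while one that is silent in that cell often has little.

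The KO mice lacked Il33 (il33-/-) and the control mice were wild type (WT), both on the C57BL6 background. All carried B16.F10 melanoma, a mouse tumour line, for 14 days after an injection of 300000 cells under the skin. Cells were sorted from the tumour-draining lymph nodes as CD4+CD25+GITR+ and are labelled as Foxp3+ Tregs. There were 3 KO libraries (replicates 1, 2 and 4) and 3 WT libraries (replicates 2, 4 and 6). The labels do not say that replicates came from separate mice, nor whether mice were pooled, so the p-values below measure only the spread between libraries, which may be technical.

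The KO libraries held 4.72 to 10.3 M (M, mega) tags after filtering and the WT libraries 12.9 to 15.2 M. The KO lists held 37266 to 42738 peaks and the WT lists 52836 to 55939. The deepest KO library held fewer tags than the shallowest WT library, so genotype and sequencing depth cannot be told apart in any count of peaks. All 6 Treg marker genes that were checked (Foxp3, Il2ra, Tnfrsf18, Ctla4, Cd4 and Cd3e) had a peak in every library, with 31 to 36 peaks in KO and 38 to 40 in WT lists. The 5 B cell markers had 8 to 12 peaks in KO and 15 to 19 in WT lists, at a density of 0.152 and 0.242 peaks per 10 kb against 1.44 and 1.70 for the Treg markers. Ms4a1, which defines B cells, had no peak in any library. The 5 CD8 T and NK cell markers had 4 to 6 peaks in KO and 8 in every WT list, with none at Ncr1. Myeloid markers had 5 to 6 in KO and 6 in each WT list, with none at Lyz2, Adgre1 and Csf1r. Melanoma markers had 5 in each KO list and 5 to 6 in WT lists, with none at Tyrp1, Tyr and Dct. The part of other cell types in the results below was not tested. In such bulk samples, fewer cells with an open site and less opening per cell cannot be told apart.

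Promoter sequences of 4 of the 8 genes were matched in RefSeq (GRCm38.p6, the assembly behind mm10): Nrp1, Izumo1r, Gpr83 and Capg. They are shown because for the first 3 a region called in all 6 libraries covered the matched start, while at Capg none did. The matched Capg start lies 11.4 kb inside the span, and a region called in all 6 libraries lay at the upstream end of the span, as given below. Each is the 250 bases before the start, 5′ to 3′ on the strand of the gene, with capitals marking a match to one of the motifs searched. The lines are Nrp1 on the plus strand at chr8:128358823-128359072, Izumo1r on the minus strand at chr9:14903768-14904017, Gpr83 on the plus strand at chr9:14859960-14860209 and Capg on the plus strand at chr6:72549397-72549646.
Nrp1: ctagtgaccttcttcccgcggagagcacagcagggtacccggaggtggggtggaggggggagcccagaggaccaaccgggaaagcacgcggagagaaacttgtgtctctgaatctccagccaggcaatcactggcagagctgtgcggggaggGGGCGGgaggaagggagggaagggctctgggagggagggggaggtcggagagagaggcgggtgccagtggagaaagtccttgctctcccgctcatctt
Izumo1r: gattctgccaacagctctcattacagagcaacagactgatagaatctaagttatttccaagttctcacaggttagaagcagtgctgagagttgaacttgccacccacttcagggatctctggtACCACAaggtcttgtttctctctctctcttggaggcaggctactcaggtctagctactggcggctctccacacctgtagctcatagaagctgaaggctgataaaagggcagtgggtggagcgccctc
Gpr83: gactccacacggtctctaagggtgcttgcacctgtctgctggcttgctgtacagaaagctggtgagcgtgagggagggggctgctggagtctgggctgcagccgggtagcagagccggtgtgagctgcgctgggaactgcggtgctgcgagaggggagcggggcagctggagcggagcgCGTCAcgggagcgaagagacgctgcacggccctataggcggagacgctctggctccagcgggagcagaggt
Capg: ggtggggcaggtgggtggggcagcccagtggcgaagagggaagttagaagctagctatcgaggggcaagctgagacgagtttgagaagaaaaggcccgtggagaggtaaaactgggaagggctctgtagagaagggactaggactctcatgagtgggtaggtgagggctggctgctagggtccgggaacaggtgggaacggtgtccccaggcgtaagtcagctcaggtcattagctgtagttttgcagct

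The Gpr83 and Nrp1 promoters were rich in G and C, with 66.8% and 64.4% GC and 18 and 11 CpG dinucleotides. Capg had 57.6% and 7, and Izumo1r 50% and 2. Over all 32851 RefSeq promoters of this length the median was 52.4% GC and 6 CpG. The motifs searched on both strands were AP-1 (TGANTCA), the core of the CRE (TGACG), forkhead (TGTTTAC), RUNX (TGTGGT), STAT (TTCNNNGAA), the TATA box (TATAAA) and the GC box (GGGCGG). The Nrp1 promoter held 1 GC box, at -98 to -93 counted from the start, as did 32.7% of all promoters. Izumo1r held 1 RUNX motif, read on the opposite strand, at -127 to -122, as did 14.0% of all. Gpr83 held 1 CRE core, also on the opposite strand, at -71 to -67, as did 17.8% of all. AP-1 (6.75% of all promoters), forkhead (3.17%), STAT (7.02%) and the TATA box (12.4%) had no match in the 4 windows, and Capg held none of the 7 motifs. These matches describe letters and not bound sites.

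Taken as one set, the 8 genes had fewer peaks in KO than in WT libraries, as had the whole lists. The KO libraries had 34, 32 and 38 peaks at the 8 genes, and the WT libraries 49, 48 and 49. The groups did not overlap, and averaged 34.7 ± 3.06 peaks for KO and 48.7 ± 0.577 for WT (SD, n = 3 each). Their difference of -14 had p = 0.1 in a two-sided exact permutation test over the 20 assignments of libraries, the smallest value that 3 against 3 libraries allow. The KO to WT ratio was 0.712 at the 8 genes and 0.756 for the whole lists. Per 10000 peaks of the list, the 8 genes had 8.02, 8.59 and 8.89 peaks in KO and 9.20, 8.58 and 9.27 in WT libraries. These groups overlapped, and the difference of -0.52 had p = 0.3 (exact permutation test). With every list cut to the length of the shortest, the means were 8.50 for KO and 9.66 for WT, or -1.16 (exact permutation p = 0.1, the smallest possible). Covered length was 16.9, 14.6 and 18.9 kb in KO and 24.8, 25.1 and 23.95 kb in WT libraries. That ratio of 0.681 (p = 0.1, exact permutation test, the smallest possible) stood beside 0.685 for the whole lists.

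The genes differed in how the KO and WT counts compared. At Nrp1, Klrg1 and Capg, 3 of the 8 genes, every KO library had fewer peaks than every WT library. At Izumo1r, Gpr83, Rgs1, Cd83 and Penk the groups overlapped, and no gene had every KO library above every WT library. In lists of equal length p was above 0.1 at Nrp1, Klrg1 and Capg as well, as given for each gene below. Among all 16246 protein-coding genes with a peak, 15.5% had every KO library below and 0.388% every KO library above. That share grew with the number of peaks, from 6.51% of genes with a WT mean of 1 to 2 peaks and 16.5% at 3 to 5 to 34.7% at 6 to 9 and 66.1% at 10 or more. Nrp1 belonged to the highest of these classes and Klrg1 and Capg to the next. After Benjamini-Hochberg adjustment over the 16246 genes no gene passed, since the lowest adjusted p was 0.629. The exact permutation p was 0.1 unadjusted for 2583 genes.

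**Figure D1:**
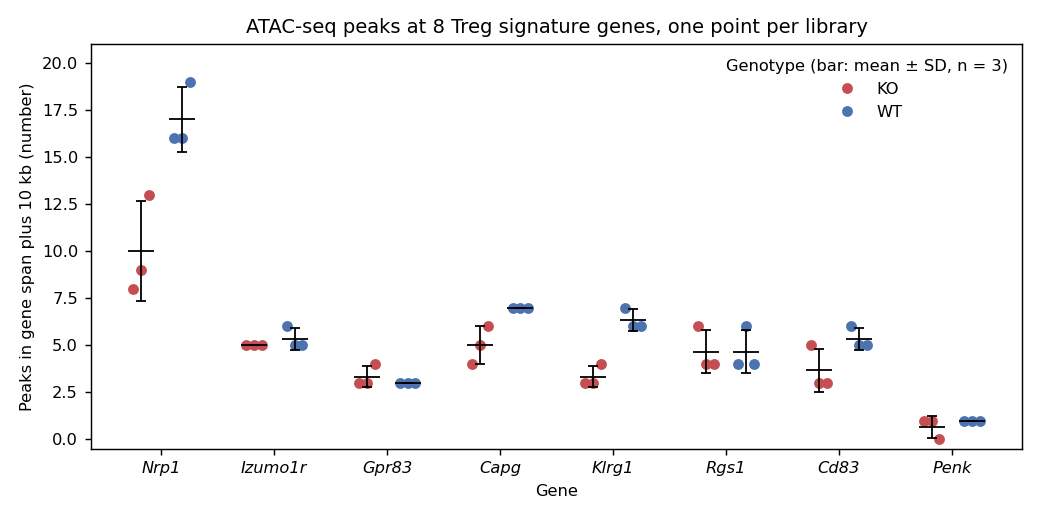
Number of ATAC-seq peaks in each gene span plus 10 kb, 1 point per library, KO (red) left of WT (blue), with mean and SD as bars (n = 3 each). Nrp1 averaged 10 in KO and 17 in WT libraries and Klrg1 3.33 and 6.33, with no overlap, whereas Rgs1 averaged 4.67 in both.

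In KO libraries the density of peaks in span plus flanks was highest at Rgs1 (1.91 ± 0.473 peaks per 10 kb), followed by Izumo1r (1.31 ± 0), Capg (1.12 ± 0.224), Gpr83 (1.08 ± 0.187), Klrg1 (1.03 ± 0.179), Cd83 (0.964 ± 0.304), Nrp1 (0.599 ± 0.159) and Penk (0.264 ± 0.228; SD, n = 3). In WT libraries Klrg1 came first (1.96 ± 0.179), before Rgs1 (1.91 ± 0.473), Capg (1.57 ± 0), Cd83 (1.40 ± 0.152), Izumo1r (1.40 ± 0.151), Nrp1 (1.02 ± 0.104), Gpr83 (0.971 ± 0) and Penk (0.396 ± 0). In this order, neighbours from Izumo1r to Cd83 did not differ beyond their SDs in KO. In WT the same held for Klrg1, Rgs1 and Capg, for Cd83 and Izumo1r, and for Nrp1 and Gpr83. The median over all genes with a peak was 0.464 in KO and 0.578 in WT, so 7 of the 8 genes lay above the median of all genes in both genotypes and Penk below it.

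Nrp1 encodes neuropilin-1, a surface co-receptor for semaphorins and vascular endothelial growth factor that is used to mark Tregs formed in the thymus. The gene lies on chromosome 8 at 128358591 to 128505476, the longest span of the set at 146.9 kb. It had 8, 9 and 13 peaks in KO and 16, 16 and 19 in WT libraries. Every KO library was below every WT library, at 10 ± 2.65 peaks for KO and 17 ± 1.73 for WT, or -7 (exact permutation p = 0.1, the smallest possible, and adjusted p = 0.629). In lists of equal length, each cut to its most significant peaks, the difference was -2 (9.33 in KO and 11.3 in WT, exact permutation p = 0.3). The covered length was 4818 ± 865 bp in KO, against 7615 ± 367 bp in WT libraries (SD, n = 3 each). Of the 19 regions, 8 were called in all 6 libraries, 4 in all 3 WT and no KO library (WT-only), and 7 in another pattern. Over all 64817 regions, 45.4% were called in all 6 libraries and 4.66% were WT-only.

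Peak height is the authors' own pileup, the number of extended tags stacked at the summit, and is given below as a multiple of the median pileup of its library's list. Heights were not tested. On this scale every KO value was below every WT value in 48.2% of all regions called in all 6 libraries. On the second scale used further below, this held for 0 of the 27 such regions of the 8 genes. The tallest Nrp1 region, at 128357726 to 128359146, covered the start and the promoter shown above, with summits at -562 to -170 bases from the start. Its scaled height was 1.65, 1.5 and 1.74 in KO and 2.11, 2.3 and 2.17 in WT libraries. Every KO value was below every WT value on this scale, but the 2 groups overlapped when heights were scaled to the median of the regions called in all 6 libraries. Just inside the gene, a region at 128359433 to 128359901 was called in 1 KO library (1.26) and in all 3 WT libraries (1.71, 1.89 and 1.24). At the other end of the gene, the region at 128504042 to 128504746 had heights of 0.900, 0.938 and 0.696 in KO and 1.43, 1 and 1.45 in WT libraries, again with no overlap.

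The 4 WT-only regions of Nrp1 were short and, in 3 cases, lay deep inside the gene. They spanned 128418509 to 128418856 (348 bp, with heights of 0.714, 0.741 and 0.724 in WT), 128420937 to 128421234 (298 bp, with 0.679, 0.593 and 0.517), 128491764 to 128492043 (280 bp, with 1, 1.19 and 1.1), and 128505986 to 128506247 (262 bp, with 1.04, 0.704 and 0.759). The last lay 0.51 kb beyond the upper end of the gene. Most of these heights were below the median peak of their list. Absence from a list means that no peak passed the caller's threshold in that library, and says nothing of whether the DNA was fully closed. The inner region called in all 6 libraries with the widest gap between genotypes, at 128391028 to 128391924, had 1.2, 1.31 and 0.957 in KO and 1.64, 1.93 and 1.93 in WT libraries (log2 difference -0.67).

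**Figure D2:**
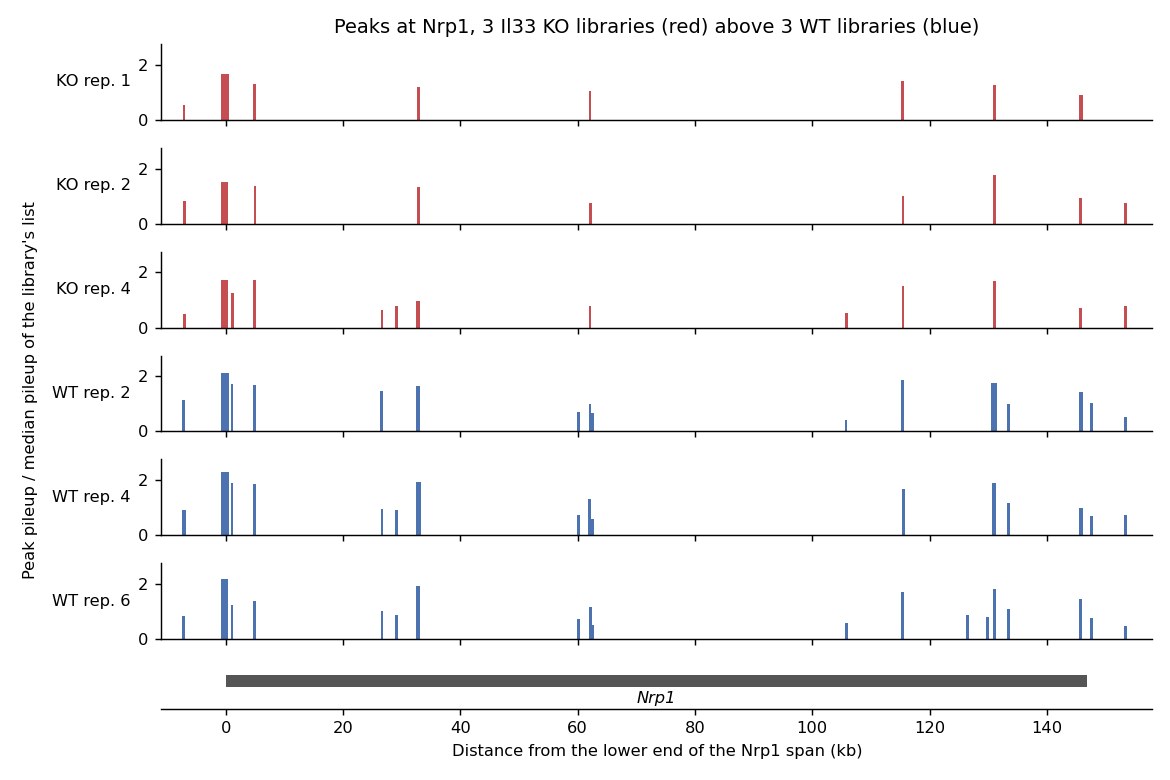
Peaks of each library along Nrp1, with distance from the lower end of the gene span in kb on the x axis and peak pileup over the median pileup of the list on the y axis, KO libraries (red) above WT libraries (blue), the grey bar being the gene. The start and 7 other sites carry a peak in every library, while 4 sites carry one in the 3 WT and none of the KO libraries. Bars narrower than the line width are drawn wider than the peak.

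Izumo1r encodes folate receptor 4, also known as Juno, which Tregs carry on their surface and which on the egg binds the sperm protein Izumo1. Gpr83 encodes a G protein-coupled receptor found on Tregs and in the brain. The genes are neighbours on chromosome 9, Gpr83 at 14859880 to 14870789 and Izumo1r at 14885814 to 14903951, with 15.0 kb between them, so their windows overlapped by 4.98 kb. Izumo1r had 5 peaks in each of the 3 KO libraries and 6, 5 and 5 in WT libraries. Gpr83 had 3, 3 and 4 in KO and 3 in each of the WT libraries. The groups overlapped at both genes (exact permutation p = 1, adjusted p = 1).

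At Izumo1r, 5 of 6 regions were called in all 6 libraries and the other in 1 WT library, and there was no WT-only region. The tallest, at 14907805 to 14908565 upstream of the start, had heights of 2.25, 1.44 and 2.26 in KO and 2.75, 3 and 2.76 in WT libraries, all KO below all WT. The region over the start and the promoter shown, at 14903159 to 14904299, had 2.1, 1.875 and 1.87 in KO and 1.93, 2.85 and 2.00 in WT libraries, with overlap. Inside the gene next to it, the region at 14902395 to 14902804 had 2.05, 2.00 and 2.00 in KO and 1.89, 2.44 and 1.48 in WT libraries. This was the 1 region of the 8 genes with a log2 difference above 0 (0.09). It was also the 1 region with every KO library above every WT library when heights were scaled to the regions called in all 6 libraries (log2 difference 0.43). At the lower end, the region at 14884582 to 14885447 had 1.35, 1.25 and 1.74 in KO and 1.61, 1.78 and 1.86 in WT libraries.

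Gpr83 had 4 regions. The tallest, at 14859843 to 14860972, covered the start, with summits at -48 to -26 bases from it and thus inside the promoter shown. Its height was 2.3, 1.94 and 2.35 in KO and 2.68, 2.70 and 2.45 in WT libraries, all KO below all WT. A region inside the gene at 14866926 to 14867382 had 1.40, 0.688 and 1.39 in KO and 1.86, 1.78 and 1.69 in WT libraries, a log2 difference of -0.69. The low value was that of KO replicate 2, the shallowest library. The region at 14875922 to 14877049 lay between the genes, in both windows, and had 1.15, 0.688 and 1.30 in KO and 1.07, 1.11 and 0.966 in WT libraries, with overlap. The remaining region, at 14857358 to 14857586, was called only in KO replicate 4 (1.09), and was the 1 region of the 57 called in some KO and no WT library. Over all 64817 regions, 2054 had that pattern.

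**Figure D3:**
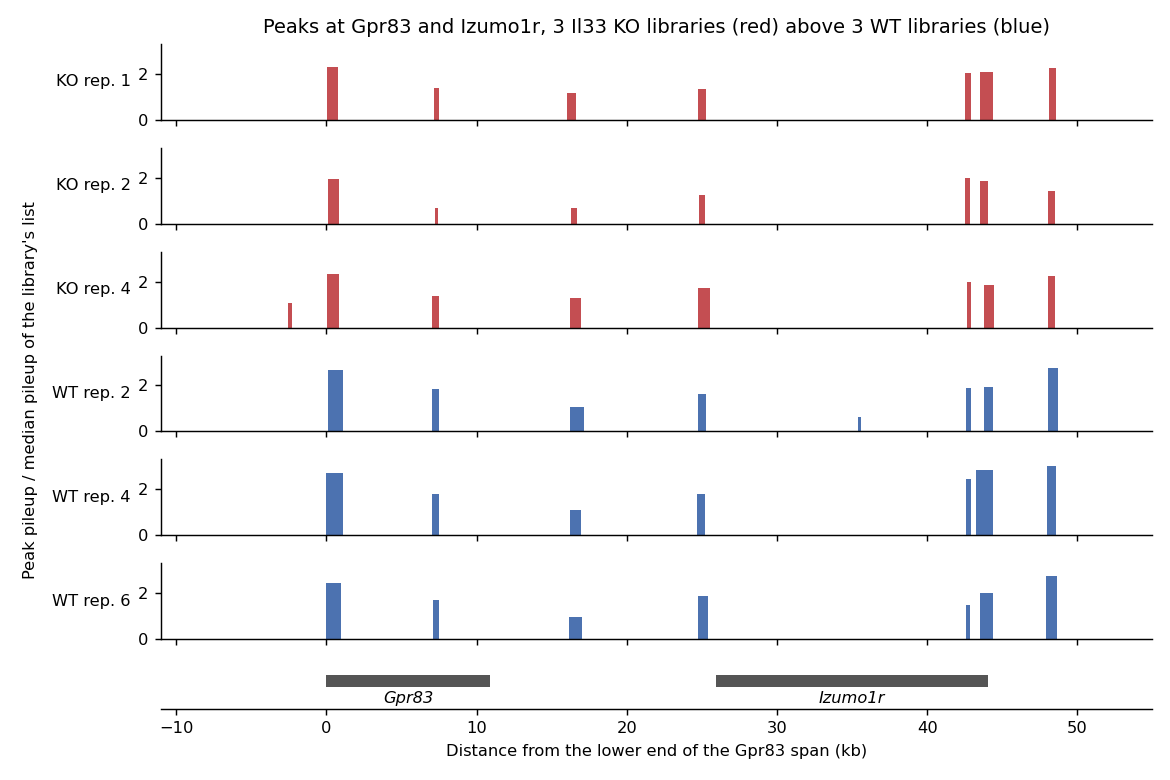
Peaks of each library across Gpr83 and Izumo1r, with distance from the lower end of Gpr83 in kb on the x axis and peak pileup over the median pileup of the list on the y axis, KO libraries (red) above WT libraries (blue), grey bars being the genes. 7 sites carry a peak in all 6 libraries, 2 of them over the starts of the genes, and each of the other 2 sites appears in a single library.

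Klrg1 encodes a lectin-like inhibitory receptor for cadherins, carried by highly differentiated T and NK cells and by some effector Tregs. On chromosome 6 at 122270596 to 122282833, it had 3, 3 and 4 peaks in KO and 7, 6 and 6 in WT libraries. The groups did not overlap, at 3.33 ± 0.577 peaks for KO and 6.33 ± 0.577 for WT, or -3 (exact permutation p = 0.1, the smallest possible, and adjusted p = 0.629). In lists of equal length Klrg1 averaged 2.33 peaks in KO and 3.67 in WT (-1.33, exact permutation p = 0.2). Within the gene span alone it averaged 0.667 in KO and 1.33 in WT (-0.667, exact permutation p = 0.6), so most of the difference lay in the flanks. Covered length was 969 ± 163 bp in KO and 2493 ± 287 bp in WT. The CD8 T and NK cell markers also had fewer peaks in KO lists, as had the B cell and Treg markers and the whole lists, as given above. The part of other cell types in this difference was not tested.

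Klrg1 had 7 regions, 5 of which every WT library called. All 3 KO libraries called 2 of these 5 and none called 1. The tallest, at 122291674 to 122292177 and 8.84 kb beyond the upper end, had 1.85, 1.81 and 1.26 in KO and 2.07, 2.00 and 1.86 in WT libraries. The other region called in all 6 libraries, at 122262535 to 122263142, had 0.5, 0.688 and 0.435 in KO and 1.14, 0.926 and 1 in WT libraries. Its log2 difference of -0.94 was the lowest of the 27 such regions of the 8 genes, and 0.948% of all such regions lay lower. With heights scaled to the regions called in all 6 libraries it was -0.59 and the groups overlapped. The WT-only region, at 122269095 to 122269514 and 1.08 kb below the gene, had 0.643, 0.444 and 0.517. The region over the lower end of the gene, at 122270146 to 122270639, was called in KO replicates 2 and 4 (0.438 and 0.435) and in all 3 WT libraries (0.821, 0.815 and 0.655). Near the upper end, the region at 122283499 to 122283811 was called only in WT replicates 2 and 6 (0.464 and 0.414).

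Cd83 encodes an immunoglobulin-family surface protein best known from mature dendritic cells and also made by activated lymphocytes. On chromosome 13 at 43785112 to 43803133, it had 5, 3 and 3 peaks in KO and 6, 5 and 5 in WT libraries. The groups overlapped, with 3.67 ± 1.15 in KO and 5.33 ± 0.577 in WT (exact permutation p = 0.3, adjusted p = 0.985). Of 7 regions, 3 were called in all 6 libraries, and these were among the tallest of the set. The region inside the gene at 43788763 to 43789543 had heights of 2.90, 2.75 and 2.78 in KO and 3.43, 3.59 and 3.07 in WT libraries. The region over the lower end of the gene, at 43784776 to 43785919, had 2.3, 2.25 and 2.39 in KO and 3.04, 2.81 and 2.72 in WT libraries. In both, all KO values were below all WT values on this scale. With heights scaled to the regions called in all 6 libraries the groups overlapped, with log2 differences of 0.09 inside the gene and 0.04 at its lower end. A region 9.50 kb below the gene, at 43774819 to 43775616, had 3.30, 2.31 and 2.83 in KO and 2.82, 3.56 and 3.48 in WT libraries, with overlap. The region nearest to the upper end, 1.58 kb beyond it at 43804710 to 43804975, was called in KO replicate 1 (0.5) and WT replicate 2 (0.464).

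Capg encodes a protein of the gelsolin family that caps actin filaments. On chromosome 6 at 72538282 to 72562983, it had 4, 5 and 6 peaks in KO and 7 in each of the WT libraries. Every KO library was below every WT library, at 5 ± 1 peaks for KO and 7 ± 0 for WT, or -2 (exact permutation p = 0.1, the smallest possible, and adjusted p = 0.629). In lists of equal length Capg averaged 4.67 peaks in KO and 6.33 in WT (-1.67, exact permutation p = 0.3). Within the gene span alone it averaged 3.33 in KO and 4 in WT (-0.667, exact permutation p = 0.4). The tallest of its 8 regions, at 72538309 to 72539213, lay at the lower end of the span, which is the upstream end of this plus-strand gene. Its height was 2.80, 2.75 and 2.43 in KO and 3.29, 3.93 and 3.24 in WT libraries, all KO below all WT.

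This tallest region lay 0.027 kb from the upstream end of the span. The Capg start matched here lies 11.4 kb inside the span, and other starts were not examined. No region covered this matched start, whose promoter is shown above. The nearest, at 72549084 to 72549498, was called only in WT replicate 4 (1.44), with its summit at -283 bases from that start. The second tallest Capg region, at 72552349 to 72553271, was called in all 6 libraries, at 2.5, 2.06 and 2.3 in KO and 2.54, 2.78 and 2.97 in WT libraries. At the upper end, the nearest region lay 2.90 kb beyond the gene at 72565881 to 72566568, overlapping Elmod3, with 1.35, 0.813 and 1.70 in KO and 1.64, 1.48 and 1.93 in WT libraries. The WT-only region, at 72534139 to 72534360, had 1.11, 1.11 and 1.24 in WT, lay 3.92 kb below Capg and overlapped the gene Sh2d6.

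Rgs1 encodes a protein that speeds the GTPase of G protein alpha subunits and so dampens signals of chemokine receptors. On chromosome 1 at 144244669 to 144249104, it had 6, 4 and 4 peaks in KO and 4, 6 and 4 in WT libraries, with a mean of 4.67 ± 1.15 in each genotype (exact permutation p = 1, adjusted p = 1). Its 6 regions held 3 called in all 6 libraries and no WT-only region. The tallest, over the upper end of the gene at 144248731 to 144249461, had 2.70, 2.38 and 2.91 in KO and 2.86, 3.89 and 3.66 in WT libraries, with overlap. The region nearest to the lower end, at 144243340 to 144244001, had 1.60, 1.31 and 1.43 in KO and 2.18, 1.85 and 1.97 in WT libraries, all KO below all WT. A region inside the gene, at 144247509 to 144247784, was called in KO replicates 1 and 2 (1.60 and 1.19) and WT replicates 2 and 4 (1.61 and 1.63).

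Penk encodes proenkephalin, the secreted precursor of the opioid peptides called enkephalins. On chromosome 4 at 4133536 to 4138815, it had 1 region, over the upper end of the gene at 4138614 to 4139074. This was called in KO replicates 1 and 2 (heights of 0.350 and 0.375, from pileups of 7 and 6 tags) and in WT replicates 2, 4 and 6 (0.286, 0.481 and 0.552, from pileups of 8, 13 and 16 tags). Penk had the fewest peaks and the lowest single height of the 8 genes, and its groups overlapped (exact permutation p = 1, adjusted p = 1).

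**Figure D4:**
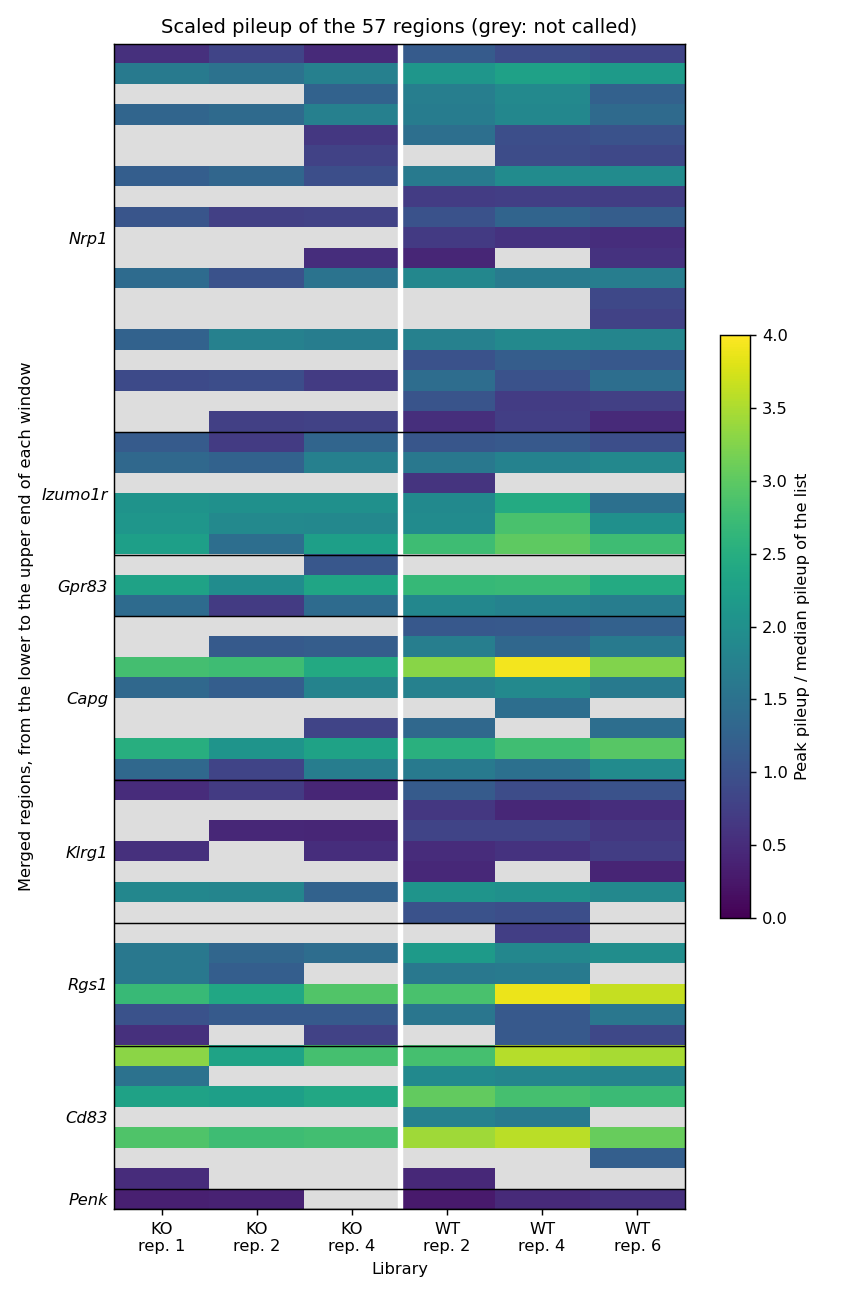
Peak pileup over the median pileup of the list for each of the 57 regions (rows, ordered along each gene's window) in each library (columns, KO left of WT), with grey where no peak was called. The tallest regions are those of Capg, Rgs1 and Cd83, which reach 3.93, 3.89 and 3.59 in WT libraries, and the WT-only regions appear as rows that are grey in the 3 KO columns alone. The region shared by Gpr83 and Izumo1r is drawn with Izumo1r.

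Over the 8 genes, 27 of the 57 regions (47.4%) were called in all 6 libraries, close to the 45.4% of all regions. WT-only regions numbered 6 (10.5%), against 4.66% of all regions, and 4 of the 6 were at Nrp1. Without Nrp1, 2 of 38 regions (5.26%) were WT-only. When every list was cut to the length of the shortest, keeping its most significant peaks, 0 of the 6 remained WT-only, and the share over all regions was 0.966%. There was no region called in all 3 KO and no WT library (KO-only), a pattern held by 0.0185% of all regions. The other 24 regions had mixed patterns, and 26 of the 57 were called in more WT than KO libraries with 1 called in more KO than WT libraries. Over all 64817 regions these numbers were 29981 and 2685. A peak in all 3 WT libraries was found at 41 regions, and 65.9% of them had one in all 3 KO libraries too, beside 67.6% over the whole study. Regions within 1 kb of a gene end were called in all 6 libraries in 9 of 14 cases, those further inside the gene in 10 of 25 and those in the flanks in 8 of 18. These counts by place have no share over all regions beside them, so they are not a trait of the 8 genes. Regions called in all 6 libraries had a median length of 781 bp and the rest of 338.5 bp, against 841 and 348 bp over all regions.

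Heights of the 27 regions called in all 6 libraries were lower in KO by a median log2 difference of -0.37 (range -0.94 to 0.09), beside -0.32 for all 29419 such regions. In 15 of the 27 (55.6%) every KO value was below every WT value, against 48.2% of all such regions, and in none was every KO value above (0.197% of all). A second scale used the same regions in every library. With heights scaled to the median of the regions called in all 6 libraries, the median was -0.03 at the 8 genes and 0.03 over all regions. On that scale 0 of the 27 regions had every KO below every WT (6.90% of all) and 1 (3.70%) had every KO above (13.7% of all). Per gene, the median log2 difference was -0.62 at Klrg1, -0.43 at Nrp1, -0.37 at Rgs1, -0.35 at Capg, -0.26 at Cd83, -0.25 at Gpr83 and -0.19 at Izumo1r on the first scale. On the second it was -0.27 at Klrg1, -0.09 at Nrp1, -0.03 at Rgs1, -0.00 at Capg, 0.09 at Cd83, 0.09 at Gpr83 and 0.15 at Izumo1r, so that the sign differed for the last 3. The second scale adds the same 0.35 to the log2 difference of every region, so these signs follow from the scale, and the order of the genes is the same on both.

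**Figure D5:**
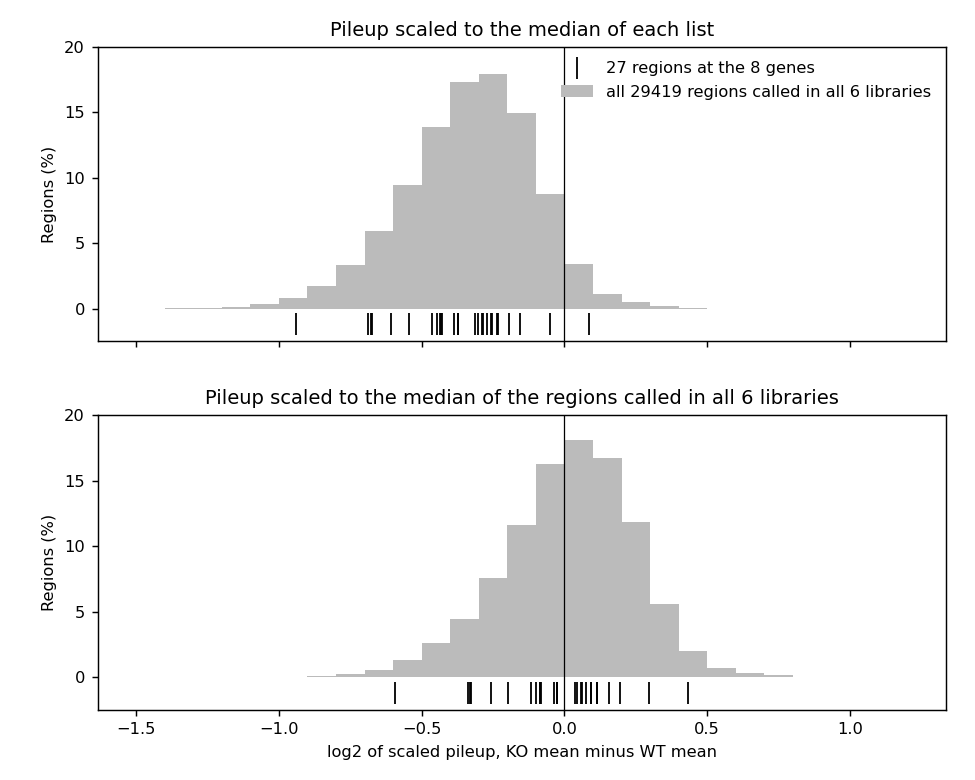
Difference of scaled pileup between genotypes (x axis, mean log2 of KO minus mean log2 of WT) for the 27 regions at the 8 genes (black ticks) over the histogram of all 29419 regions called in all 6 libraries (grey, % of regions per bin). With pileup scaled to each list's median (top) the medians are -0.37 and -0.32, and with pileup scaled to the shared regions (bottom) they are -0.03 and 0.03.

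A list of 24 other Treg genes, among them Foxp3, Il2ra, Ctla4 and Ikzf2, gave 186 regions. Of these, 97 (52.2%) were called in all 6 libraries and 3 (1.61%) were WT-only. At the 8 genes these shares were 47.4% and 10.5%, and over all regions 45.4% and 4.66%. Without Nrp1 the WT-only share at the remaining genes was 5.26%, and in equal-length lists 0 of the 6 WT-only regions of the 8 genes remained. Every KO library had fewer peaks than every WT library at 7 of the 24 genes (Foxp3, Il2rb, Ctla4, Ikzf2, Icos, Tigit and Ecm1) and more at none, against 15.5% and 0.388% of all genes. The groups overlapped at the other 17 genes. The 24 genes were not matched to all genes by peak number. Over all genes the share below was 16.5% at a WT mean of 3 to 5 peaks, 34.7% at 6 to 9 and 66.1% at 10 or more. The median log2 height difference of their 97 shared regions was -0.30 on the list scale and 0.04 on the shared scale.

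For each gene with a peak in every library, the protein-coding gene with the most similar summed height per 10 kb over the 6 libraries was found among 14458 genes by the summed absolute log2 difference. These were Lrcol1 for Nrp1 (0.58), Ppp1r1b for Izumo1r (0.26), Tnnc1 for Gpr83 (0.35), Hmga1 for Capg (0.51), Cndp2 for Klrg1 (0.57), Dok2 for Rgs1 (0.40) and Cyren for Cd83 (0.34). All points of such a pattern share the depth of their 6 libraries.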

How the data were processed

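The deposited files were 6 ATAC-seq peak lists of mouse Tregs, 1 per library, 3 KO and 3 WT, grouped by the genotype in the labels. The build (mm10) and the use of Bowtie2 2.3.1 and Picard 1.88 are known from the submitters' processing notes. Each library had its own MACS 2.1.1.20160309 call without a control, per the file headers, at a q-value of 0.05 with a shift of -100 bp and an extension of 200 bp. 1 tag was kept per position, and the depth was 4.72 to 15.2 M tags. For a shift by the Tn5 offset, the setting was not given in the sources used here. Pileup is a deposited signal (coverage at the summit) that is not scaled to depth. The authors' −log10 q-value, −log10 p-value and fold enrichment (a ratio to local background) were also deposited per peak. A fixed q-value lets a deeper library call weaker sites.

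Peaks overlapping by at least 1 bp were merged over lists. Genes came from RefSeq spans on GRCm38.p6 plus 10 kb. Pileup was divided by the median pileup of its list. Height differences are means of log2 in KO minus those in WT, described and not tested. For peak numbers and covered length, an exact permutation test (two-sided) ran over 20 assignments. Adjustment over the 8 genes alone had been planned and was replaced by Benjamini-Hochberg adjustment over all 16246 genes with a peak. All 8 genes are named, with the tallest region, the region nearest to the start or to each gene end, every WT-only or KO-only region and all regions where there were 4 or fewer; other regions named were chosen after their values were seen. The members and lists were chosen with earlier results of these data known. Alternatives were a stricter threshold (−log10 q of at least 5), equal-length lists, other flanks, other scalings, leaving out each library, and the replicate block. The steps were tested on simulated data and ran in Python 3.11.15 with SciPy 1.17.1, statsmodels 0.14.6, pandas 2.3.3, NumPy 2.4.6 and Matplotlib 3.10.9.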

Additional observations from a re-analysis of the deposited data

How the results depend on the processing

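With lists cut to equal length, no WT-only region remained (0 of 6), peaks at the 8 genes averaged 31.7 in KO and 36 in WT (p = 0.1, exact permutation test, the smallest possible), and the differences at Nrp1, Klrg1 and Capg had p above 0.1. There the difference at Izumo1r reversed to 0.333, the median log2 height difference was -0.021, and 1 region had every KO below every WT. The difference per 10000 peaks was -0.23 with the stricter threshold (p = 0.8, exact permutation test). With that threshold 5 of the 6 remained WT-only, and 8 of 50 regions were, while the share over all regions was 6.51%, against 4.66% before. Within gene spans only, 17 regions were called in all 6 libraries and 3 were WT-only, as fewer bases were searched. Scaling to the shared regions gave a median of -0.026, with 0 regions below and 1 above, and pileup over the number of tags gave -0.00358, with 0 below and 1 above. The shared scale adds the same 0.35 to every log2 difference, as given above. What lies behind that shift, or behind the change per tag, was not tested. Leaving out each library gave peak differences of -15.7 to -12.7, covered length differences of -8.93 to -6.75 kb, -0.74 to -0.28 per 10000 peaks, 27 to 30 regions in all remaining libraries, 6 to 8 WT-only regions, 0 KO-only regions, median height differences of -0.39 to -0.29, 15 to 20 regions below and 0 to 1 above (1 without KO replicate 1, KO replicate 2 or WT replicate 4). Per gene these differences ran from -8.5 to -6 at Nrp1, -3.33 to -2.67 at Klrg1, -2.5 to -1.5 at Capg, -2.33 to -1.33 at Cd83, -0.667 to 0.667 at Rgs1, 0 to 0.5 at Gpr83, and -0.5 to 0 at Izumo1r and Penk. Region counts from leaving out a library have no share over all regions beside them. The same holds for counts below or above in equal-length lists or per tag. Fewer libraries make such patterns easier to meet at any region. In the paired comparison with a replicate block (numbers 2 and 4, given without a test) the peak difference was -13.5, the covered length difference -8.25 kb, that per 10000 peaks -0.15 and the median height difference -0.34. Deviations of same-numbered libraries correlated at -0.02 and -0.05 over 29419 regions, beside -0.03 to 0.05 for libraries with different numbers. With so few shared numbers this cannot show whether same-numbered libraries were handled together. The numbers were taken as names only. Depth limits the comparison, since each KO library had fewer tags than each WT library.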
